A study of Mus musculus with 10 samples.

Results

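The genes described here encode the subunits of the mouse proteasome and of its inducible form, the immunoproteasome. They were taken as 38 named genes, from Psma1 to Psme4, by matching the gene column of the deposited tables; all 38 were found, out of 29242 genes listed with TPM, and all 38 were among the 14203 genes abundant enough to be tested. Of these, 5 are immunoproteasome genes (Psmb8, Psmb9, Psmb10, Psme1 and Psme2), and the other 33 are called constitutive subunits here. RNA was sequenced from visceral adipose tissue of 5 mice that carried KPC tumours in the pancreas and of 5 mice after sham surgery. KPC is the usual name of a mouse pancreatic cancer model; no tumour line or clone is named in the labels. Both groups were wild type C57BL/6 mice of 10 weeks, and sample titles carry the ending gwat, read here as gonadal fat.

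The proteasome is a barrel of stacked rings that cuts proteins into peptides. The outer rings are built from alpha subunits (Psma genes), the inner rings from beta subunits (Psmb genes), and a regulatory cap of ATPases (Psmc genes) and other subunits (Psmd genes) recognises ubiquitin-tagged proteins, unfolds them and feeds them in. Only 3 beta subunits cut: Psmb5, Psmb6 and Psmb7. Interferon gamma induces a substitute for each of them, Psmb8 for Psmb5, Psmb9 for Psmb6 and Psmb10 for Psmb7, together with the activator ring made of Psme1 and Psme2. The resulting immunoproteasome favours peptides that class I histocompatibility molecules can present. It is constitutively abundant in blood-derived cells, while most other cells make it mainly after cytokine exposure.

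No subunit passed an adjusted p of 0.05 in either direction (0 of 38), where 8 of all 14203 genes did (0.0563%, 7 higher and 1 lower in KPC fat; limma, Benjamini-Hochberg adjustment over all genes). Within that limit, the largest differences of the set belonged to the inducible catalytic subunits: Psmb8, Psmb9 and Psmb10 lay 1.79-fold, 1.58-fold and 1.39-fold higher in KPC fat, and no sham mouse reached the lowest KPC mouse. At an unadjusted p under 0.05, 4 of 38 subunits were higher in KPC fat, against 7.61% of all genes, and these 4 were all among the 5 immunoproteasome genes. By the same rule, 0 of 38 were lower, against 5.91% of all genes. The median log2 difference was 0.48 over the 5 immunoproteasome genes and -0.03 over the 33 constitutive genes, beside -0.02 over all genes tested. In this bulk tissue, more cells of a type and more RNA per cell cannot be told apart.

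The deposited library totals were 20941242 to 24449863 normalized counts. KPC mouse 1 stood apart: its median correlation with the other libraries was 0.908, where the other 9 had 0.939 to 0.959, and mitochondrial transcripts made up 15.7% of its TPM, against 26.3% to 33.3% in the others. Among subunits it had the highest TPM of all 10 mice for 5 of 5 immunoproteasome and 14 of 33 constitutive genes. Values without it are therefore given for the immunoproteasome genes, the catalytic pair ratios, Psma7, Psmb4 and the medians of both subunit groups. Other values include it. The fat label fitted its markers, with Adipoq at 3322 to 4899 TPM in KPC fat and 3874 to 5245 TPM in sham fat. A list of 5 epithelial markers summed to 35.9 to 78.6 TPM in KPC fat and 28.9 to 79.5 TPM in sham fat; Krt19 averaged 35.4 TPM in KPC fat and 42.8 TPM in sham fat, while Epcam was listed at 0 in 4 KPC and 5 sham libraries. Of its 4 tested genes, 0 had an unadjusted p under 0.05 in limma. Skeletal muscle transcripts were uneven, with a summed TPM over 6 markers of 49.4 to 201 in KPC fat and 44.9 to 3651 in sham fat, highest in sham mouse 5.

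Psmb8 encodes the inducible subunit with chymotrypsin-like activity. Its level was 125, 78.0, 75.1, 80.3 and 86.5 TPM in KPC mice 1 to 5, against 43.1, 46.2, 60.7, 48.0 and 52.9 TPM in sham mice 1 to 5. All 5 KPC mice lay above the highest sham mouse, and KPC mouse 1 lay well above the other 4. The means were 89.1 ± 20.8 TPM in KPC fat and 50.2 ± 6.87 TPM in sham fat (SD, n = 5 each). On log2(normalized count + 1), KPC minus sham, the difference was 0.84 ± 0.15 (SE), with a fold of 1.79 and a 95% interval of 1.43 to 2.25, and limma gave an adjusted p of 0.0795, rank 22 of 14203 genes by p. Without KPC mouse 1 the difference was 0.70 and limma's adjusted p 0.0102. With all mice kept and sample quality weights the difference was 0.73, with limma's adjusted p 0.00984. The call thus depends on how the libraries are treated. Over all genes these settings called 70 and 200, against 8 in the main fit.

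Psmb9 encodes the substitute for Psmb6, a subunit with caspase-like activity. It stood at 67.5, 37.3, 38.8, 39.6 and 46.4 TPM in KPC mice 1 to 5, against 31.0, 25.9, 34.0, 24.3 and 30.5 TPM in sham mice 1 to 5. The groups did not overlap, but the lowest KPC mouse, at 37.3 TPM, was close to the highest sham mouse, at 34.0 TPM. On the log2 scale they differed by 0.66 ± 0.18 (SE), with a fold of 1.58 and a 95% interval of 1.20 to 2.09, and limma's adjusted p was 0.189. Without KPC mouse 1 it was 0.50, with limma's adjusted p 0.123.

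Psmb10 encodes the substitute for Psmb7, with trypsin-like activity. It stood at 70.5, 46.7, 51.7, 53.4 and 52.6 TPM in KPC mice 1 to 5, against 36.4, 41.4, 42.5, 37.3 and 43.0 TPM in sham mice 1 to 5. Again the groups did not overlap, and KPC mice 2 to 5 were within a narrow band. The log2 difference was 0.48 ± 0.12 (SE), with a fold of 1.39 and a 95% interval of 1.16 to 1.67, and limma's adjusted p was 0.152. It was 0.37 without KPC mouse 1, with limma's adjusted p 0.0680, and 0.41 with sample quality weights, with limma's adjusted p 0.0333. Psmb8, Psmb9 and Psmb10 were the 3 of 38 subunits with the KPC group entirely above the sham group in normalized counts, against 2.75% of all genes; for the opposite order the count was 0 of 38, against 1.28% of all genes.

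Psme1 and Psme2 encode the alternating subunits of the inducible activator ring. Psme1 stood at 204, 148, 151, 152 and 152 TPM in KPC mice 1 to 5, against 135, 135, 142, 142 and 138 TPM in sham mice 1 to 5. In TPM the groups were apart by a small margin, and in normalized counts they overlapped. The log2 difference was 0.24 ± 0.11 (SE; limma's adjusted p 0.377), and 0.14 without KPC mouse 1. Psme2 stood at 286, 238, 181, 214 and 226 TPM in KPC mice 1 to 5, against 200, 199, 183, 179 and 183 TPM in sham mice 1 to 5. The groups overlapped on both scales. In TPM KPC mouse 3 lay among the sham mice, and in normalized counts KPC mice 3, 4 and 5 lay below sham mouse 1. The log2 difference was 0.30 ± 0.13 (SE; unadjusted p 0.0485, limma's adjusted p 0.367), and 0.20 without KPC mouse 1.

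**Figure D1:**
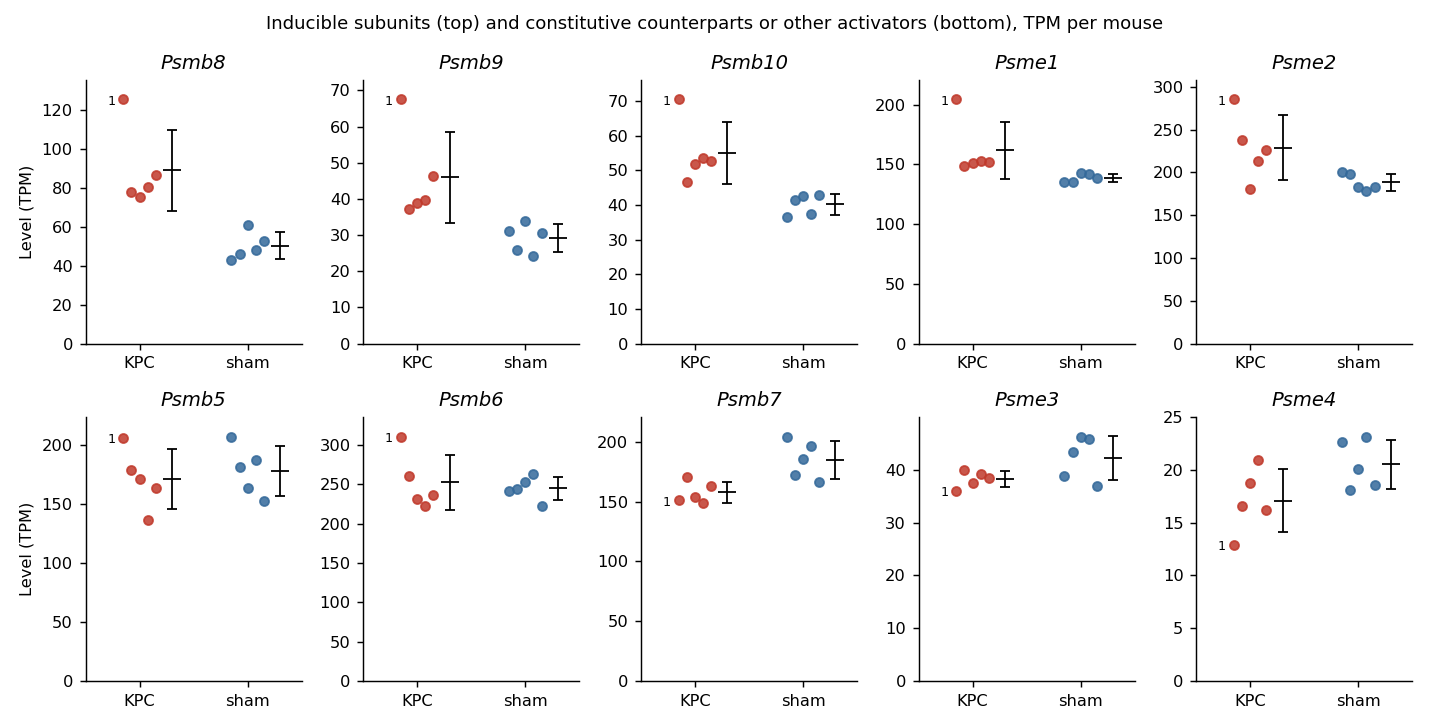
Level in TPM of the 5 immunoproteasome genes (top row) and of Psmb5, Psmb6, Psmb7, Psme3 and Psme4 (bottom row), with 1 point per mouse, KPC mice left and sham mice right, and the mean with its SD (n = 5 each) beside the points; the digit 1 marks KPC mouse 1. The KPC points of Psmb8, Psmb9 and Psmb10 lie above all sham points, and the KPC and sham points of Psmb5 and Psmb6 overlap.

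The 3 cutting subunits that these replace showed no such rise. Psmb5 stood at 206, 179, 171, 136 and 164 TPM in KPC mice 1 to 5, against 207, 181, 163, 188 and 153 TPM in sham mice 1 to 5. Psmb6, the most abundant subunit of all in both groups by mean TPM, stood at 310, 261, 231, 223 and 236 TPM in KPC mice 1 to 5, against 241, 244, 252, 262 and 223 TPM in sham mice 1 to 5. Psmb7 stood at 151, 171, 154, 149 and 164 TPM in KPC mice 1 to 5, against 204, 173, 186, 197 and 166 TPM in sham mice 1 to 5. The groups overlapped for each. For Psmb7 only KPC mouse 2 lay above the lowest sham mouse in TPM, but in normalized counts only KPC mouse 4 lay below it. The log2 differences were -0.03 for Psmb5, with a 95% interval of -0.38 to 0.32, 0.07 for Psmb6, with -0.20 to 0.34, and -0.20 for Psmb7, with -0.43 to 0.04. Their adjusted p from limma was 0.952, 0.835 and 0.447, in the same order.

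Set against its counterpart within each mouse, every inducible subunit took a larger place in KPC fat. The TPM of Psmb8 over Psmb5 was 0.609, 0.437, 0.439, 0.589 and 0.528 in KPC mice 1 to 5, against 0.208, 0.255, 0.372, 0.256 and 0.346 in sham mice 1 to 5. Psmb9 over Psmb6 was 0.218, 0.143, 0.168, 0.178 and 0.197 in KPC mice, against 0.129, 0.106, 0.135, 0.0927 and 0.137 in sham mice. Psmb10 over Psmb7 was 0.466, 0.273, 0.337, 0.358 and 0.322 in KPC mice, against 0.178, 0.240, 0.229, 0.190 and 0.259 in sham mice. No ratio overlapped between the groups, and all 3 stayed below 1 in all mice, so the constitutive transcript was the more abundant one throughout. The mean ratios differed 1.81-fold, 1.51-fold and 1.60-fold in that order. Without KPC mouse 1 the KPC means were 0.498, 0.171 and 0.322, against 0.287, 0.120 and 0.219 in sham mice. For the last ratio the denominator moved too, with Psmb7 at a mean of 158 TPM in KPC fat and 185 TPM in sham fat. Summed over the catalytic genes, the inducible ones made up 24.5 ± 2.74% of TPM in KPC fat and 16.5 ± 2.15% in sham fat (SD, n = 5 each), ranging over 21.0% to 28.3% in KPC mice and 14.5% to 18.9% in sham mice. These ratios describe the same libraries as the differences above and were given no test of their own; they are of transcripts, and protein was not measured.

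**Figure D2:**
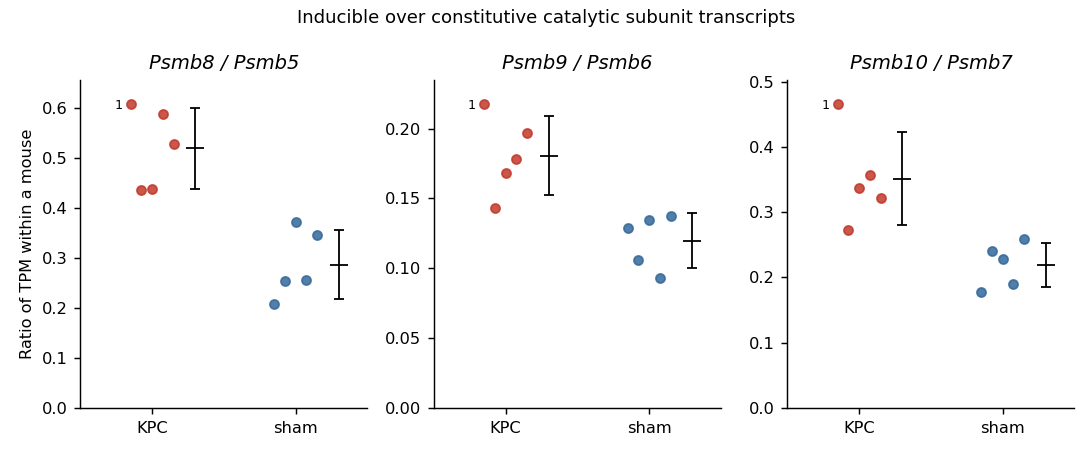
Ratio of TPM within a mouse for Psmb8 over Psmb5, Psmb9 over Psmb6 and Psmb10 over Psmb7, with 1 point per mouse, KPC left and sham right, and the mean with its SD (n = 5 each); the digit 1 marks KPC mouse 1. The lowest KPC ratios, 0.437, 0.143 and 0.273, lie above the highest sham ratios, 0.372, 0.137 and 0.259.

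The first number in the sample titles, 1, 2 or 4, has no stated meaning and is spread over both groups, so differences were also taken within it. For Psmb8 the log2 difference was 1.14 within number 1 (2 KPC and 2 sham mice), 0.63 within number 2 (1 and 2) and 0.66 within number 4 (2 and 1). For Psmb9 it was 0.82, 0.59 and 0.50, and for Psmb10 0.56, 0.53 and 0.31, in the same order. Psme1 had 0.36, 0.24 and 0.14, and Psme2 had 0.38, 0.16 and 0.27. Number 1, with the largest difference for each of these genes, is the number that KPC mouse 1 carries. For all 5 genes, no sham mouse reached a KPC mouse of its own title number. The same held for Psmb5 within number 2 and for Psmb6 within number 1. Groups this small separate easily, and the share over all genes was not counted.

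Sequences at the start sites are shown for the inducible cutting subunits, for Psme1 and for 2 of their constitutive counterparts, as the stretches in which factor motifs were looked for. Each is the RefSeq window on GRCm38.p6 from 250 bases before to 50 bases after a start site, read along the gene's strand. They are Psmb8 at chr17:34197945-34198244 on the plus strand, Psmb9 at chr17:34187281-34187580 on the minus strand, Psmb10 at chr8:105938343-105938642 on the minus strand, Psme1 at chr14:55578244-55578543 on the plus strand, Psmb5 at chr14:54617946-54618245 on the minus strand and Psmb6 at chr11:70525107-70525406 on the plus strand. In the 4 immunoproteasome genes capitals mark a match to the GAS letters TTCNNNGAA, an element of genes that respond to interferon gamma, or to the core of the interferon-stimulated response element (GAAA, any 2 bases, then GAAA). In Psmb5 and Psmb6 capitals mark a match to TGACNNNGC, the core of the antioxidant response element, bound by the Nfe2l1 and Nfe2l2 factors. Both strands were searched.
Psmb8: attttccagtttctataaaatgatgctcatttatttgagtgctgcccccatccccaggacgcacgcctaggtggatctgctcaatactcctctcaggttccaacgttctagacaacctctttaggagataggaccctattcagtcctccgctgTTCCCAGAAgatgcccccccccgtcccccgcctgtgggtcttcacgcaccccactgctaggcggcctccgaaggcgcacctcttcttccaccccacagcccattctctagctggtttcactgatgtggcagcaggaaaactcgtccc
Psmb9: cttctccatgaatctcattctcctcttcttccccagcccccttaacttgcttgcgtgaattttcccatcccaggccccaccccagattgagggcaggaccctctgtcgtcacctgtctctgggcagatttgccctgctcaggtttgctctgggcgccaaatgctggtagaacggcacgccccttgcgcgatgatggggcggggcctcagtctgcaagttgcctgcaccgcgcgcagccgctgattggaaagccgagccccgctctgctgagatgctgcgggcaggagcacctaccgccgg
Psmb10: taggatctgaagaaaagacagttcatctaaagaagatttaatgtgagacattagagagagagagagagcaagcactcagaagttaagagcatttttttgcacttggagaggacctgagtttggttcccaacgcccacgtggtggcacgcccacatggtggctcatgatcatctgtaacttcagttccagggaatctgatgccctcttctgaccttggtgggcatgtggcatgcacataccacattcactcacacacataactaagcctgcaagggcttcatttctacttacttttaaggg
Psme1: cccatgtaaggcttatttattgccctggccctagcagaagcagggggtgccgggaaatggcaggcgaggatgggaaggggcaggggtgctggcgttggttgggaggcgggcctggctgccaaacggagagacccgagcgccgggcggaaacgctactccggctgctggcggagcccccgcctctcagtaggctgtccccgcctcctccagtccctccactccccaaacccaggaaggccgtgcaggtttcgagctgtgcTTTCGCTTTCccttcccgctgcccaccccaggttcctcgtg
Psmb5: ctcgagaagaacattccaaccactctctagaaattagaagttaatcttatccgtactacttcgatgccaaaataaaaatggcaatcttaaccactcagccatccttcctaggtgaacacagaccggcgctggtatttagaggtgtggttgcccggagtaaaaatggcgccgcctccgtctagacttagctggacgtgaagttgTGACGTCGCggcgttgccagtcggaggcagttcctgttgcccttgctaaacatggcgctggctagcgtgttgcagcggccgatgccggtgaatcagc
Psmb6: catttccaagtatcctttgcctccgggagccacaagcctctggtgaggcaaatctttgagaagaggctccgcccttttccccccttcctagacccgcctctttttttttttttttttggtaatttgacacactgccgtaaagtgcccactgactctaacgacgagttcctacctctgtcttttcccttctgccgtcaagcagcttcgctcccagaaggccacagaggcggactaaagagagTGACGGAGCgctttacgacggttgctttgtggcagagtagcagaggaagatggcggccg
Counted from the RefSeq start, Psmb8 held a GAS match whose first base lies at -97. Psme1 held a response element match on the opposite strand beginning at +10. Psmb9 and Psmb10 held neither, and the Psmb9 window also covers the GENCODE start of Tap1 at base 34187553. The GENCODE starts of Psmb8, Psmb9 and Psme1 (34197721, 34187764 and 55578123) lie upstream of these windows. By that annotation the 3 windows, with the Psmb8 and Psme1 matches, lie inside the gene. Over the 5 immunoproteasome genes, 1 held a GAS match and 1 a response element match, and over the 27 constitutive genes with a window 1 and 2 did. Of 27025 genes with a window, 9.55% held the GAS letters and 3.99% the response element core. The antioxidant core was in 0 of 5 immunoproteasome and 5 of 27 constitutive windows (Psmb5, Psmb6, Psmc6, Psmd12 and Psme4), against 14.0% of all genes. These matches describe letters in short windows, and the counts are too small to set the groups apart.

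Psmb8 and Psmb9 lie together in the class II region of the histocompatibility complex on chromosome 17, with their GENCODE starts 9957 bases apart. Psmb8 (ENSMUSG00000024338) spans 34197721 to 34201454 and Psmb9 (ENSMUSG00000096727) 34181987 to 34187764 on GRCm38. Tap1, the transporter subunit that carries peptides to class I molecules, starts 211 bases from Psmb9 on the other strand. Exons of Psmb9 overlap those of Tap1, those of Psmb8 overlap Gm20496, those of Psme1 overlap Emc9 and those of Psmb7 overlap Nek6, each on the other strand. The strand setting of the counting is not given in the sources used here, so reads from such overlaps cannot be told apart. Psmb10 (ENSMUSG00000031897) lies on chromosome 8, at 105935735 to 105938444, away from the other immunoproteasome genes and with no exon overlap. A near copy of Psme2, Psme2b, had 2.91 to 6.28 TPM in KPC fat and 1.72 to 4.32 TPM in sham fat, so reads of Psme2 could have been divided with it.

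Of the remaining activators, Psme3 forms a nuclear ring that works without ubiquitin, and Psme4 a large single-chain cap. Psme3 stood at 36.0, 39.9, 37.5, 39.2 and 38.5 TPM in KPC mice 1 to 5, against 38.7, 43.5, 46.3, 45.9 and 37.0 TPM in sham mice 1 to 5. Psme4 stood at 12.9, 16.6, 18.7, 20.9 and 16.2 TPM in KPC mice 1 to 5, against 22.6, 18.1, 20.1, 23.2 and 18.6 TPM in sham mice 1 to 5. Both groups overlapped for both genes. The log2 differences were -0.11 ± 0.08 for Psme3 and -0.24 ± 0.13 for Psme4 (SE), with limma's adjusted p 0.594 and 0.432. The sign was opposite to that of Psme1 and Psme2, and Psme4 had the most negative difference of the 38 genes.

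The 7 alpha ring genes, which form the gate of the barrel, had differences of both signs, 4 positive and 3 negative, and the median log2 difference was 0.03. The largest was that of Psma7, at 307, 183, 160, 161 and 155 TPM in KPC mice 1 to 5, against 176, 179, 175, 170 and 158 TPM in sham mice 1 to 5. In TPM only KPC mice 1 and 2 lay above the sham mice, and mouse 1 was far above mouse 2. In normalized counts only KPC mouse 1 lay above them. For Psma7 the log2 difference was 0.16 ± 0.19 (SE; limma's adjusted p 0.753), and -0.04 without KPC mouse 1. KPC mouse 1 had the highest TPM of all 10 mice for 6 of 7 alpha ring genes. By level, this ring was uneven in both groups: Psma6 averaged 223 ± 39.9 TPM in KPC fat and 221 ± 15.5 TPM in sham fat, while Psma2 averaged 43.7 ± 6.32 TPM in KPC fat and 44.5 ± 1.92 TPM in sham fat (SD, n = 5 each).

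The 4 beta ring genes without cutting activity, Psmb1 to Psmb4, all had positive differences, with a median of 0.08. Psmb4 had the largest, at 250, 180, 163, 173 and 187 TPM in KPC mice 1 to 5, against 169, 169, 186, 190 and 170 TPM in sham mice 1 to 5. Apart from KPC mouse 1, the KPC values in TPM lay within the sham range or just below it. In normalized counts KPC mouse 2 lay just above that range. For Psmb4 the log2 difference was 0.13 ± 0.13 (SE; limma's adjusted p 0.677), and 0.01 without KPC mouse 1.

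Of the 6 cap ATPases, the ring of motors that unfolds substrates, 1 had a positive and 5 a negative difference, with a median of -0.07. Psmc6 differed most, at 50.5, 49.2, 44.1, 42.1 and 42.4 TPM in KPC mice 1 to 5, against 50.5, 49.3, 54.4, 53.1 and 44.1 TPM in sham mice 1 to 5. The groups overlapped, and the log2 difference was -0.11 ± 0.11 (SE; limma's adjusted p 0.697). Psmc5 averaged 117 ± 2.20 TPM in KPC fat and 123 ± 10.4 TPM in sham fat (SD, n = 5 each).

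The 11 other cap genes include the ubiquitin receptor Psmd4, the scaffold Psmd2 and the deubiquitinase Psmd14. Their differences were positive for 2 and negative for 9, with a median of -0.08. Psmd2 had the largest, at 82.2, 96.5, 97.8, 99.7 and 100.1 TPM in KPC mice 1 to 5, against 103, 105.5, 112, 118 and 102 TPM in sham mice 1 to 5. In TPM all KPC mice lay below all sham mice, and KPC mouse 1 was the lowest, but in normalized counts the groups overlapped. The log2 difference was -0.15 ± 0.08 (SE; limma's adjusted p 0.446). Psmd4 averaged 125 ± 8.74 TPM in KPC fat and 124 ± 10.9 TPM in sham fat, and Psmd14 77.1 ± 9.78 TPM in KPC fat and 83.4 ± 11.7 TPM in sham fat (SD, n = 5 each).

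Over all 33 constitutive genes, 12 differences were positive and 21 negative, from -0.24 to 0.16 on the log2 scale, and the lowest unadjusted p was 0.0869. A fold of 1.1 in either direction was passed by 4 of 33, and the share of all genes past it was not counted. The median was -0.10 without KPC mouse 1, against 0.37 for the 5 immunoproteasome genes in the same fit. With a block on the first title number the constitutive median was 0.007, against 0.478 for the 5 immunoproteasome genes. Without KPC mouse 1 and sham mouse 5, a choice made after seeing the data, 7 of 38 subunits were lower at an unadjusted p under 0.05 in limma. In that fit 6.39% of all genes were, and with all 10 mice 0 of 38 subunits were lower. Sham mouse 5 is the only sham mouse of title number 4, which KPC mice 4 and 5 also carry. Without it, group and title number cannot be told apart for those mice.

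**Figure D3:**
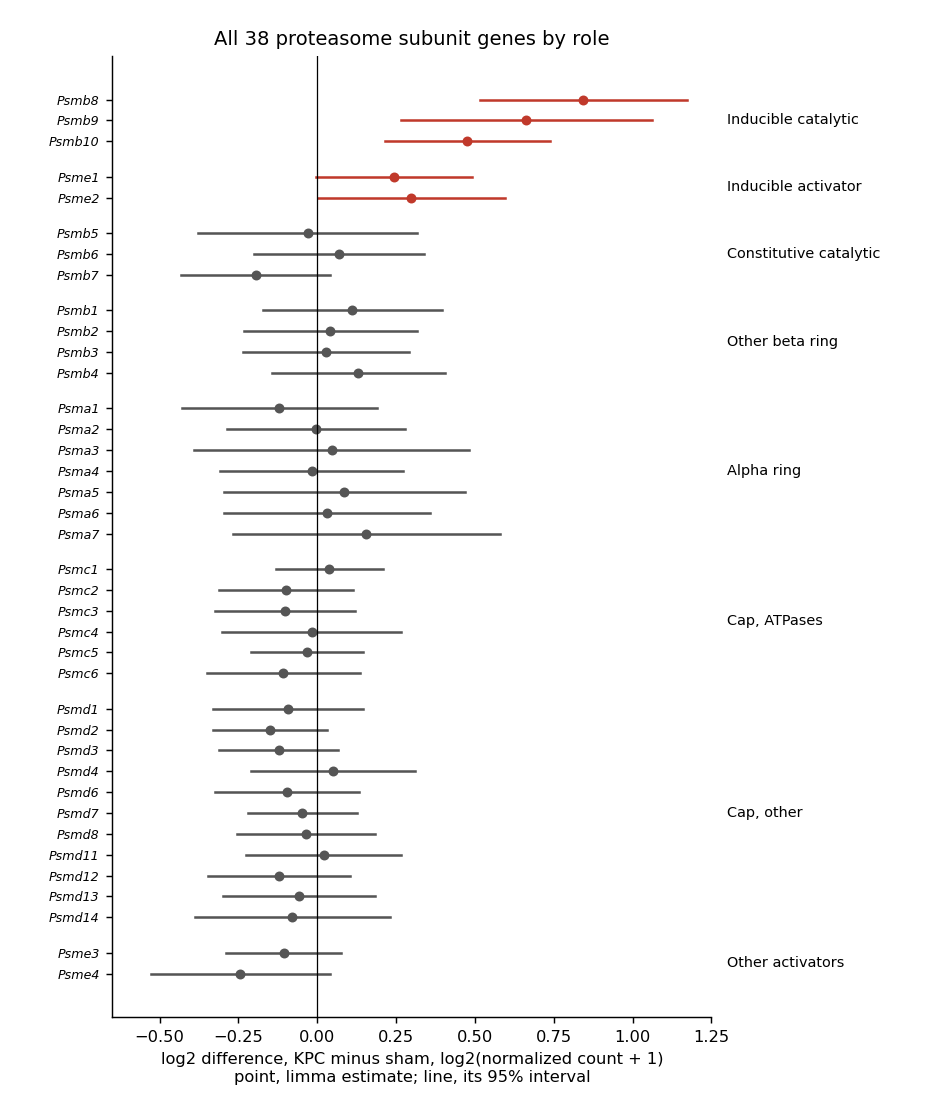
Log2 difference, KPC minus sham, of log2(normalized count + 1) for all 38 subunits by role, with limma's 95% interval; immunoproteasome genes are red and constitutive ones grey. The intervals of Psmb8, Psmb9 and Psmb10 lie above 0, that of Psme2 just above it, and those of the 33 constitutive genes all include 0.

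Further proteasome subunits, assembly factors and regulators outside the 38 were counted as a list of 18, of which 15 could be tested. None passed an adjusted p of 0.05 in limma, and the median difference was -0.03. At an unadjusted p under 0.05, 0 were higher and 0 lower, against 7.61% and 5.91% of all genes. The chaperone Psmg4 had the lowest unadjusted p, 0.0761, with a log2 difference of 0.37. Pomp, which assists assembly of the core and favours the inducible one, averaged 67.1 ± 8.82 TPM in KPC fat and 66.7 ± 4.37 TPM in sham fat (SD, n = 5 each; log2 difference 0.03, limma's adjusted p 0.927). The tissue-restricted subunits Psma8, of testis, and Psmb11, of thymus, stood under 1 TPM in all mice and were not tested. Nfe2l1 and Nfe2l2, transcription factors that act on constitutive subunit genes, differed by -0.13 ± 0.14 and 0.23 ± 0.10 on the log2 scale (SE), with overlapping groups and limma's adjusted p 0.374 for Nfe2l2. Of their list of 4, 0 were higher and 0 lower at an unadjusted p under 0.05.

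The genes of the interferon gamma pathway, which induces Psmb8, Psmb9 and Psmb10 in many cell types, pointed one way without passing the adjusted test. Of 9 listed, 8 could be tested and all 8 differences were positive, with a median of 0.25. Of the 8, 4 had an unadjusted p under 0.05 and 0 passed the adjusted p of 0.05 in limma. Over all genes tested, 6657 of 14203 differences were positive, and 7.61% were higher at that unadjusted p. Ifng itself was at most 0.162 TPM in KPC mice and 0.188 TPM in sham mice and was listed at 0 in 1 KPC and 2 sham libraries. Nlrc5, the activator of class I genes, stood at 8.72, 4.29, 5.56, 5.47 and 6.00 TPM in KPC mice 1 to 5, against 4.78, 4.62, 3.62, 2.12 and 2.76 TPM in sham mice 1 to 5. Only KPC mouse 2 lay within the sham range in TPM, and in normalized counts KPC mouse 4 did as well. Its log2 difference was 0.80 ± 0.28 (SE; limma's adjusted p 0.282). Ifngr1, a receptor chain, differed by 0.42, Jak2, its kinase, by 0.27 and Irf1, a factor that acts on Psmb8 and Psmb9, by 0.23, all with overlapping groups and with limma's adjusted p 0.225, 0.284 and 0.341.

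Class I presentation, which receives the peptides, was covered by 9 genes. Of these, 8 differences were positive, with a median of 0.18. In limma 3 had an unadjusted p under 0.05, all higher in KPC fat, against 7.61% of all genes, and 0 passed the adjusted p of 0.05. Tap1, the neighbour of Psmb9, stood at 30.7, 21.1, 20.8, 23.7 and 31.1 TPM in KPC mice 1 to 5, against 17.9, 16.0, 19.7, 15.5 and 21.9 TPM in sham mice 1 to 5. In TPM the groups met at the edge, with KPC mice 2 and 3 just below sham mouse 5, and in normalized counts they did not overlap. Its log2 difference was 0.51 ± 0.15 (SE; limma's adjusted p 0.212). The class I heavy chains H2-K1 and H2-D1 differed by 0.53 and 0.35 (limma's adjusted p 0.119 and 0.314). Tap1 and H2-K1 were the 2 of 9 genes with the KPC group entirely above the sham group in normalized counts, against 2.75% of all genes. In TPM both overlapped.

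Ubiquitin genes and activating enzymes, 6 in all, supply the tag that the cap reads. Of these, 1 was higher and 1 lower at an unadjusted p under 0.05, Rps27a by 0.52 and Uba1 by -0.22 (limma's adjusted p 0.344 and 0.354). By the same rule 7.61% of all genes were higher and 5.91% lower. The ubiquitin ligases of muscle wasting, Trim63 and Fbxo32, had 0 of 2 at an unadjusted p under 0.05. Trim63 was listed at 0 in 1 KPC and 1 sham library and reached 4.57 TPM in sham fat, where muscle transcripts were highest.

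Leukocyte, macrophage and T and NK cell markers also lay higher in KPC fat, and none of them passed an adjusted p of 0.05 in limma. Over all genes tested, 6657 of 14203 differences were positive, and 7.61% were higher at an unadjusted p under 0.05 in limma. The summed TPM of 7 leukocyte markers was 294 to 1097 in KPC fat and 194 to 326 in sham fat, with 7 of 7 differences positive and 5 at an unadjusted p under 0.05. For 8 macrophage markers the sum was 1510 to 6080 TPM in KPC fat and 893 to 1445 TPM in sham fat (8 of 8 positive, 7 at an unadjusted p under 0.05). For 8 T and NK cell markers it was 10.0 to 14.9 TPM in KPC fat and 5.85 to 9.70 TPM in sham fat (8 of 8 positive, 4 at an unadjusted p under 0.05). B cell markers were mixed, with 1 positive and 2 negative differences among the 3 tested. They summed to 3.93 to 5.99 TPM in KPC fat and 3.30 to 5.40 TPM in sham fat. Red cell markers summed to 8547 to 40711 TPM in KPC fat and 4748 to 12868 TPM in sham fat (5 of 5 positive, 0 at an unadjusted p under 0.05). KPC mouse 1 was the highest for leukocyte, macrophage, B cell and red cell markers, as it was for all 5 immunoproteasome genes. Its B cell sum was mostly Cd79b, at 4.23 TPM. The next highest KPC mouse had 391 TPM for leukocyte markers (mouse 2) and 2218.5 TPM for macrophage markers (mouse 4). Adipocyte markers summed to 23516 to 28876 TPM in KPC fat and 24131 to 32468 TPM in sham fat, with 3 of 7 positive. The part of these cells in the immunoproteasome values was not tested.

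**Figure D4:**
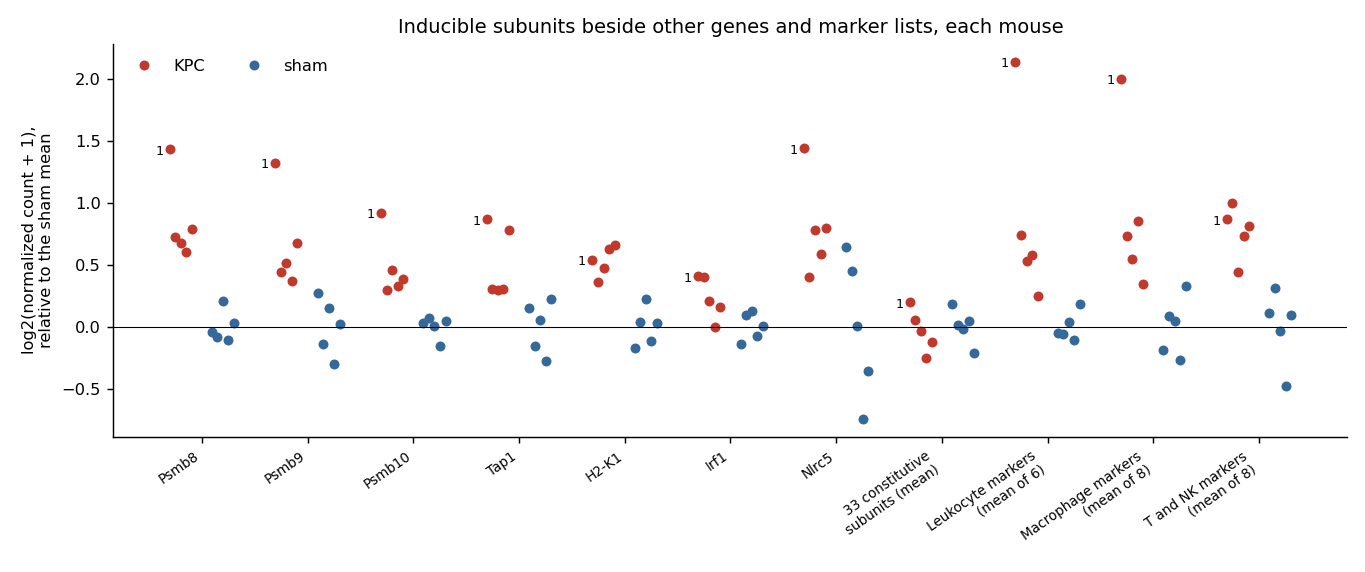
Log2(normalized count + 1) relative to the sham mean, with 1 point per mouse, KPC left and sham right at each gene or list, for the inducible catalytic subunits, 4 genes of class I presentation and the interferon gamma pathway, the mean of the 33 constitutive subunits and the means of leukocyte (without Tyrobp, listed at 0 in 2 sham libraries), macrophage and T and NK cell markers; the digit 1 marks KPC mouse 1. KPC mice lie above the sham mice for Psmb8, Psmb9, Psmb10, Tap1, H2-K1 and the marker means. The groups overlap for Irf1, Nlrc5 and the constitutive mean.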

How the data were processed

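Visceral fat RNA from 5 KPC and 5 sham mice was analysed. The authors deposited a gene table of normalized counts, treated as a normalized signal, and a table of TPM, a share of transcripts corrected for length. Build mm10, DESeq, DESeq2 and Salmon are named, per the submitters' processing notes, without versions; annotation and strand setting are not stated there. Steps between low values did not give whole reads (at best 31.1% to 47.3% of values up to 30 within 0.05 of a whole number), so no count model was run. Both tables hold one quantification: over 10131 genes their log2 ratio varied by a median SD of 0.00041 after 1 factor per sample.

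Genes with a mean of at least 10 normalized counts (14203 of 16667) entered a two-sided limma test (limma 3.58.1, R 4.3.3, variance trend) on log2(normalized count + 1), with p-values adjusted over these genes after Benjamini and Hochberg. A log2 fold on this scale understates changes of low genes. Depth in reads is unknown, and no counting intervals are given. Samples are separate by label, but the labels do not say that they are separate litters or cages. The fit was run on simulated data with independent noise and changes larger than those of the subunits, as a check of the code only. It does not show how well changes of the size seen here are recovered. The 38 members and the lists were chosen with earlier results of these data known. Values per mouse are given for the immunoproteasome genes, their counterparts, the other activators and the largest difference in each role, and up to 3 genes by p for each list, plus Irf1, Nlrc5, Nfe2l1, Tap1 and Pomp; 1 further gene of this rule is not reported here. Pseudocounts, filters, TPM, centring, weights, blocks and leaving out each mouse were the alternatives. Gene models are from GENCODE vM21, and start windows, found for 32 of 38 members, from RefSeq.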

Additional observations from a re-analysis of the deposited data

Results flagged for a closer look

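Of 46 groups of 5 mice checked, 7 held a value separated from the rest by more than Dixon's 95% critical value. All 7 were KPC mouse 1. Chance alone gives about 1 in 20 independent groups, but these groups share the same 10 libraries. Psma7, Psmb4 and Psmd2 were also picked as the largest difference of their role. That rate is therefore no yardstick for the count. It was the highest of the KPC mice for Psmb8 at 125 TPM, Psmb10 at 70.5 TPM, Psme1 at 204 TPM, Psma7 at 307 TPM, Psmb4 at 250 TPM and the assembly chaperone Pomp at 82.6 TPM. It was the lowest of them for Psmd2, at 82.2 TPM. Its mitochondrial share of TPM, 15.7%, was also the lowest of all 10 libraries.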

How the results depend on the processing

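Psmb8, Psmb9, Psmb10, Psme1 and Psme2 kept a positive difference under all 22 alternatives, with ranges of 0.70 to 0.91, 0.50 to 0.74, 0.37 to 0.52, 0.12 to 0.29 and 0.17 to 0.37; limma's adjusted p ranged over 0.00984 to 0.249 for Psmb8, 0.0531 to 0.442 for Psmb9 and 0.0333 to 0.400 for Psmb10. Over all genes, 8 were called; the count was 2 with TPM, 4 with TPM over nuclear genes, 3 without a variance trend, 200 with sample quality weights, 4 with a block on the first title number, 2 to 70 when single mice were left out (70 without KPC mouse 1) and 55 with both KPC mouse 1 and sham mouse 5 removed. Of the subunits, 0 were called; 2 were with sample quality weights (Psmb8 and Psmb10), 0 to 1 when single mice were left out and 1 with that pair removed (Psmb8). Subunits lower at an unadjusted p under 0.05 numbered 0; there were 2 with TPM, against 6.45% of all genes in that fit, 4 with TPM over nuclear genes (8.06%), 1 with weights (7.41%), 0 to 3 when single mice were left out (1 without KPC mouse 1, 5.25%; 3 without sham mouse 5, 6.10%) and 7 with that pair removed (6.39%). Small differences turned in sign: Psmb5 to 0.0187 with the title block, Psmb6 to -0.0210 with TPM over nuclear genes and -0.0298 with weights, and Psma7 to -0.0105 with weights. With mice left out, singly or as that pair, Psmb5 ranged over -0.184 to 0.0786 (positive without KPC mouse 4 or sham mouse 1), Psmb6 over -0.0719 to 0.142 and Psma7 over -0.0860 to 0.239 (both negative without KPC mouse 1), and Psmb4 over -0.0153 to 0.191 (negative only without the pair). The cause was not tested. Without sham mouse 5, alone or with KPC mouse 1, no sham mouse of title number 4 was left to set against KPC mice 4 and 5.

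No clear pairing of the mice by replicate number was seen. Correlations of same-numbered deviations were 0.068, 0.191, 0.00505, 0.02 and 0.171, and only numbers 2 and 5 correlated best with their own. These 5 correlations are too few to exclude a pairing. With the replicate block 4 genes and 0 subunits were called. Depth could not be read from these values, so the spread between 5 mice per group limits what is resolved; the median SE over all genes was 0.17 on the log2 scale.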
